A study of Homo sapiens with 10 samples.

Results

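The histone genes described here were selected by name: every protein-coding gene whose GENCODE symbol begins with H1-, H2A, H2B, H3C, H3-, H4C or H4-. Of 93 such genes in GENCODE release 44, 87 were joined by Ensembl identifier to the 63299 genes of the count tables, and the other 6 were not analysed here (H2AC18, H2AC19, H2BK1, H2BN1, H3C2 and H3C3). They comprised 65 clustered genes, named H2AC, H2BC, H3C and H4C or H1-1 to H1-5, and 22 variant genes. The rule uses names and no measured value, and it was chosen with earlier results of these data known.

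mRNA profiles were measured by sequencing to examine how gene expression in U2OS cells, a cell line from a human osteosarcoma, responds to loss of the RNA helicase DDX41. Both groups were U2OS cells in the same medium, harvested 48 h after transfection with a pool of siRNAs. The siCtrl group (5 libraries) received control siRNAs and the siDDX41 group (5 libraries) received siRNAs against DDX41. The labels do not say whether the 5 libraries of a group came from separate cultures, so the p-values measure the spread between these libraries, which may be technical. The response of a single line to 1 siRNA pool per group was measured. All libraries were made from poly(A)-selected RNA.

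Histones package DNA into nucleosomes, with H2A, H2B, H3 and H4 in the core and H1 bound to the linker. The clustered, replication-dependent genes are intronless, lie in clusters and are transcribed in S phase, and their mRNAs normally end after a conserved stem-loop, without a poly(A) tail. The stem-loop is bound by the protein SLBP, and cleavage requires the U7 small nuclear ribonucleoprotein. Some clustered genes are also transcribed past the stem-loop to a downstream poly(A) site, so that libraries of polyadenylated RNA capture these forms and only a part of the S-phase histone mRNA. Some variant histone genes are expressed throughout the cell cycle, and most of these give polyadenylated mRNAs.

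Between 21807041 and 24896398 reads were counted per library. Levels are given as CPM (counts per 1000000 counts of the TMM-scaled library). Levels of different genes were compared as CPM per kilobase (kb) of annotated exons. Exon lengths and transcript ends are those of GENCODE release 44, whereas the authors counted reads on release 25. The gene models of these releases were not compared. The comparison of siDDX41 with siCtrl used the quasi-likelihood test of edgeR, with p-values adjusted by Benjamini-Hochberg over 16143 genes, and a gene was called at an adjusted p below 0.01. DDX41, the targeted gene, fell from 48.7 ± 1.43 to 12.2 ± 1.00 CPM (SD, n = 5 per group), 25.1% of the control level. Of 11 osteoblast and osteosarcoma markers, 6 passed the expression filter, among them COL1A1, SPARC and RUNX2, while DLX5 had 0 counts, IBSP had 1 and SP7 had 4. Of 14 markers of epithelial, endothelial, kidney and blood cells, 9 passed the filter, and CD3E and HBB were among those with 0 counts in every library. The summed level of these 14 genes was 981 to 1101 CPM in siCtrl and 1568 to 1763 CPM in siDDX41, nearly all from KRT8 and KRT18, keratins of simple epithelia. Of the 9 tested, 2 were called higher (KRT8 and KRT18) and 2 lower (KRT5, from 5.24 to 0.488 CPM, and CDH5), and EPCAM (log2 fold change 0.06) and CDH1 (0.10) were among the 5 not called. Their part in the histone results was not tested.

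To see which members could be measured in polyadenylated RNA, the histone stem-loop was searched in the 200 bases after each stop codon on GRCh38. The pattern, on the coding strand, was a stem of 6 bases reading GGNNCT, then a loop of 4 bases reading TTNN, then the reverse complement of that stem. It was found in 59 of 65 clustered genes (90.8%), in 4 of 22 variant genes (18.2%; H1-6, H2AX, H3-4 and H3-7) and in 4 of 19837 other protein-coding genes (0.0202%), which were H2AC18, H2AC19, H3C2 and H3C3. H2AC11 had no match in its window. The sequences of members that carry the results below are given 5′ to 3′ with the stem-loop in capitals and 5 flanking bases on either side. They show that the stem-loop is shared by genes that rose, fell or did not pass the test.
H1-2, chr6:26055739-26055764, minus strand: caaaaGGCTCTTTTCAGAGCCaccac
H2BC4, chr6:26123467-26123492, minus strand: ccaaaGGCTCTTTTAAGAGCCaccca
H2BC5, chr6:26158582-26158607, plus strand: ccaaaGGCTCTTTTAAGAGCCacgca
H2BC6, chr6:26184205-26184230, plus strand: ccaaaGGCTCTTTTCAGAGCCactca
H2BC11, chr6:27132316-27132341, minus strand: ctaacGGCTCTTTTAAGAGCCaccca
H2AC6, chr6:26124664-26124689, plus strand: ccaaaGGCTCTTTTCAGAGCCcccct
H4C9, chr6:27139649-27139674, plus strand: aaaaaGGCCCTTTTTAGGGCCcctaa
H4C8, chr6:26285126-26285151, minus strand: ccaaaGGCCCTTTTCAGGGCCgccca
H2AX, chr11:119094893-119094918, minus strand: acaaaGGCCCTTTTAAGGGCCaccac

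Between the stop codon and these stem-loops lie 27 (H1-2) to 49 (H2AX) bases. Among the 63 stem-loops of members, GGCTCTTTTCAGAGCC was found in 37 genes, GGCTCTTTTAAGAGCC in 10 and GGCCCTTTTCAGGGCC in 10. H2AX, a variant gene, carries GGCCCTTTTAAGGGCC and also has 2 transcripts annotated beyond it.

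Levels of the clustered genes were set against their 3′ ends as annotated in release 44. Reads were counted on release 25, so an exon new in release 44 would hold no counts. In 16 clustered genes at least 1 transcript was annotated to end over 100 bases past the stem-loop. These genes had a median level of 1.87 CPM per kb over the 10 libraries, 11 passed the expression filter and 2 had no counts. In 43 clustered genes with a stem-loop no transcript was annotated that far. These had a median of 0.121 CPM per kb, 9 passed the filter and 14 had no counts. The 6 genes without a stem-loop match had a median of 0.181 CPM per kb, and 2 passed the filter (H2AC11 and H3C6). The first class also holds the longer gene models, with 861 to 5002 exon bases (median 1878) against 386 to 858 (median 489) in the second, and the filter works on counts, which grow with length. The highest levels per length among the clustered genes were those of H1-2, at 314 CPM per kb over all libraries, and H2BC12, at 161 CPM per kb, which have a single annotated transcript that ends within 100 bases of the stem-loop.

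**Figure D1:**
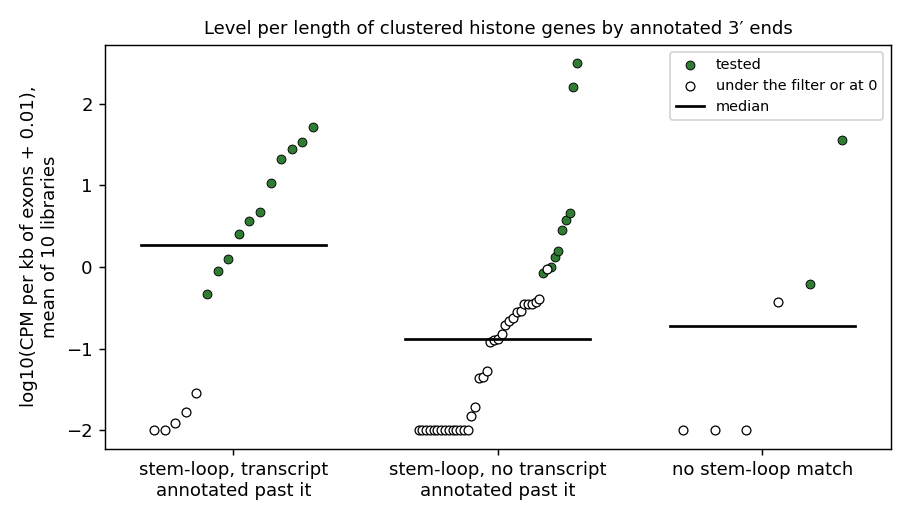
Mean level over 10 libraries, as log10(CPM per kb of exons + 0.01), of the 65 clustered histone genes, grouped by stem-loop and annotated 3′ end; each point is a gene, filled where it passed the expression filter, and lines mark medians. Genes with a transcript annotated past the stem-loop have a median of 1.87 CPM per kb and those without one 0.121, with wide overlap.

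In all, 30 members passed the expression filter (22 clustered and 8 variant), 27 had 1 to 88 counts over the 10 libraries and were not tested, and 30 had no counts. A count of 0 allows a level of up to 0.0127 CPM, from 3 counts over all 10 libraries, and covers counting error only. This bound holds only for genes whose reads could be placed: in 8 of the 30 over 50% of the 84-base windows, the length of a read, repeat elsewhere in the genome (H2AB1, H2AB2, H2AB3, H2BC12L, H3-7, H3C13, H3C14 and H3C15). Genes that most cells express, NELFE and PPP1R10, were also listed at 0, so a 0 here does not show that a gene was silent. The genes without counts included the linker histone genes H1-3 and H1-5, 3 clustered H2A, 4 H2B, 7 H3 and 3 H4 genes, and variant genes such as H2AB1, H2AP, H1-7 and H1-8. The highest of the members under the filter were H4C4 (88 counts) and the variant gene H3-5 (59 counts). H2AC7 and H3C4, both at 0, share 85.3% and 96.6% of their exon bases with an unnamed protein-coding gene that had 588 counts. Near-identical copies may also have limited the values. Every 84-base window of the exons of H4C14 also occurred in another member, and 60.4% of those of H2AC13 and 31.8% of those of H2BC12 did.

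Most clustered genes that passed the filter were not called upon DDX41 knockdown. Of the 22 tested, 8 were called higher (36.4%; H2AC11, H2BC4, H1-4, H2BC5, H2BC6, H4C9, H1-2 and H2AC6), 2 lower (9.09%; H2BC11 and H4C14) and 12 were not called. Over all 16143 genes tested, 30.3% were called higher and 32.1% lower, so the share of clustered genes called higher was near that of all genes. Their median log2 fold change was 0.15, with quartiles of -0.02 and 0.44, beside -0.00 for all genes, with quartiles of -0.32 and 0.25. This median was 0.09 without siCtrl replicate 1, 0.10 without siCtrl replicate 5 and 0.23 with a correction for GC content. Without siCtrl replicate 5 the calls were 5 higher and 0 lower, and DESeq2 called 6 higher and 2 lower. The number lower was 1 without siCtrl replicate 1, without siDDX41 replicate 2 or with the GC correction. The groups did not overlap for 4 of the 22 (18.2%; H2AC11, H2BC4, H2BC5 and H2BC6), against 55.9% of all genes. In bulk RNA, a change in the fraction of cells in a phase and a change in mRNA per cell cannot be told apart.

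**Figure D2:**
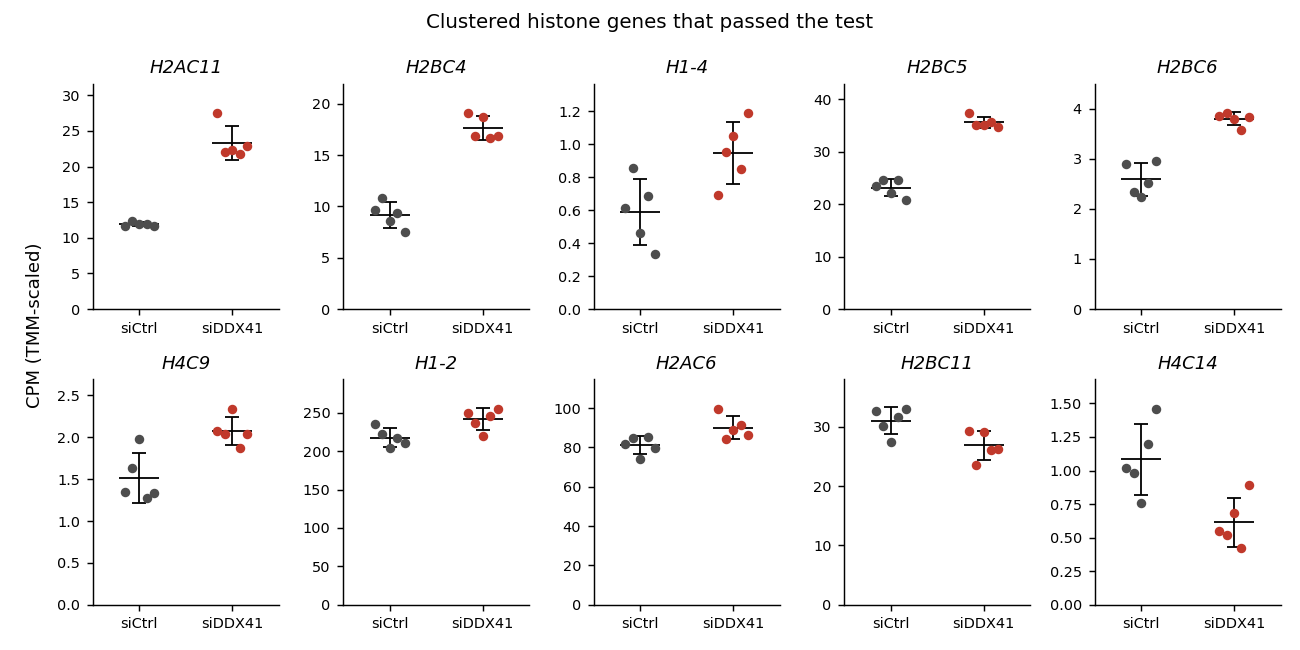
Level in CPM (axes from 0) of the 10 clustered histone genes called higher or lower, with each library as a point and bars for mean ± SD of 5 libraries. The groups are apart for H2AC11, H2BC4, H2BC5 and H2BC6, and overlap in the others, as in H2AC6.

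The H2A gene H2AC11 (chr6:27133043-27133535, a single exon) and the H2B gene H2BC4 (chr6:26086317-26123926) showed the largest rises among tested members. H2AC11 measured 11.7, 12.4, 11.9, 11.9 and 11.7 CPM in the siCtrl libraries and 27.5, 22, 22.3, 21.7 and 22.9 CPM in the siDDX41 libraries. It rose from 11.9 ± 0.312 to 23.3 ± 2.39 CPM, log2 fold change 0.96, SE 0.06, adjusted p = 2.14e-14. All siDDX41 libraries lay above all siCtrl libraries, with siDDX41 replicate 1 the highest. H2BC4 measured 9.68, 10.8, 8.54, 9.41 and 7.5 CPM in the siCtrl libraries and 19.1, 16.9, 18.7, 16.7 and 16.9 CPM in the siDDX41 libraries. It rose from 9.18 ± 1.23 to 17.7 ± 1.14 CPM, log2 fold change 0.94, SE 0.07, adjusted p = 3.39e-12, and the groups did not overlap. The exons of H2BC4 share 14.9% of their bases with HFE on the opposite strand, whose level was 2.45 ± 0.319 CPM in siCtrl and 2.28 ± 0.399 CPM in siDDX41 (adjusted p = 0.534).

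The H2B genes H2BC5 and H2BC6 also rose. H2BC5 measured 23.4, 24.6, 22.2, 24.6 and 20.8 CPM in the siCtrl libraries and 37.4, 35.2, 35.1, 35.6 and 34.7 CPM in the siDDX41 libraries, with every siDDX41 library above every siCtrl library (log2 fold change 0.62, SE 0.05, adjusted p = 8.91e-13). H2BC6 measured 2.9, 2.33, 2.23, 2.52 and 2.96 CPM in the siCtrl libraries and 3.86, 3.91, 3.79, 3.58 and 3.83 CPM in the siDDX41 libraries (log2 fold change 0.55, SE 0.11, adjusted p = 3.88e-05). The groups were again apart. A lncRNA on the opposite strand covers 28.2% of the exon bases of H2BC6 and had 23 counts, against 753 for H2BC6. Of the other H2B genes tested, H2BC11 was called lower and the rest were not called. H2BC12 was measured at 76.4 ± 8.87 CPM in siCtrl and 82.7 ± 6.91 CPM in siDDX41 (adjusted p = 0.269), H2BC21 at 46.4 ± 1.88 CPM in siCtrl and 47.4 ± 3.69 CPM in siDDX41 (adjusted p = 0.58), H2BC15 at 3.9 ± 0.389 CPM in siCtrl and 3.57 ± 0.44 CPM in siDDX41 (adjusted p = 0.29) and H2BC7 at 1.17 ± 0.221 CPM in siCtrl and 1.53 ± 0.302 CPM in siDDX41 (adjusted p = 0.0465, above the threshold used). H2BC11 fell from 31 ± 2.29 to 26.9 ± 2.4 CPM, log2 fold change -0.21, SE 0.06, adjusted p = 0.00274. Its groups overlapped, with siCtrl from 27.4 to 33.0 CPM and siDDX41 from 23.5 to 29.3 CPM, and its call was lost with the GC correction (-0.17) and without siCtrl replicate 1 (-0.19), siCtrl replicate 5 (-0.18) or siDDX41 replicate 2 (-0.16).

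The linker histone gene H1-2 had the highest level per length of the clustered genes, at 298 CPM per kb in siCtrl and 330 CPM per kb in siDDX41, followed by H2BC12 (154 and 167 CPM per kb) and H2AC6 (48.7 and 54.0 CPM per kb). H1-2 measured 235, 222, 204, 217 and 210 CPM in the siCtrl libraries and 250, 236, 219, 246 and 255 CPM in the siDDX41 libraries. It rose by a small amount (log2 fold change 0.15, SE 0.04, adjusted p = 0.00233), the groups overlapped at 219 to 235 CPM, and the log2 fold change was 0.25 with the GC correction. H2AC6 measured 81.8, 84.8, 74.1, 85.3 and 79.7 CPM in the siCtrl libraries and 99.6, 84.3, 88.6, 91.2 and 86.3 CPM in the siDDX41 libraries (log2 fold change 0.15, SE 0.04, adjusted p = 0.0035). Its groups overlapped as well, and its call was lost with the GC correction (0.11) and without siCtrl replicate 5 (0.14), siDDX41 replicate 1 (0.11) or siDDX41 replicate 4 (0.14).

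The remaining calls were made at low levels. H1-4, a further linker histone gene with 182 counts in all, measured 0.613, 0.857, 0.463, 0.685 and 0.333 CPM in the siCtrl libraries and 0.69, 0.955, 1.05, 0.852 and 1.19 CPM in the siDDX41 libraries (log2 fold change 0.68, SE 0.23, adjusted p = 0.00938). The call was lost in DESeq2, with the replicate block and when any of 8 of the 10 libraries was left out (all but siCtrl replicate 2 and siDDX41 replicate 1). H4C9, with 424 counts, went from 1.51 ± 0.292 to 2.07 ± 0.167 CPM (log2 fold change 0.45, SE 0.14, adjusted p = 0.00615), and this call was lost in DESeq2 and without siCtrl replicate 1, 4 or 5 or siDDX41 replicate 1 or 3. H4C14, with 202 counts, fell from 1.08 ± 0.262 to 0.616 ± 0.181 CPM (log2 fold change -0.80, SE 0.22, adjusted p = 0.002), and its call was lost without siCtrl replicate 5 (-0.67). Its reads cannot be assigned with certainty, since its exons repeat in another member. H4C8, the H4 gene with the highest level per length (10.8 CPM per kb in siCtrl), was measured at 23.3 ± 1.07 CPM in siCtrl and 22.9 ± 1.24 CPM in siDDX41 (log2 fold change -0.03, SE 0.05, adjusted p = 0.656), and the 95% interval of its log2 fold change ran from -0.12 to 0.07. H4C16 was at 6.04 ± 0.478 CPM in siCtrl and 6.23 ± 0.681 CPM in siDDX41 (adjusted p = 0.667). Among the H3 genes, H3C10 was at 4.61 ± 0.234 CPM in siCtrl and 4.61 ± 0.576 CPM in siDDX41 (adjusted p = 0.995), with an interval of -0.19 to 0.18, H3C6 at 1.41 ± 0.236 CPM in siCtrl and 1.8 ± 0.377 CPM in siDDX41 (adjusted p = 0.0569) and H3C1 at 0.4 ± 0.121 CPM in siCtrl and 0.446 ± 0.0654 CPM in siDDX41 (adjusted p = 0.629). None of the 3 tested H3 genes was called.

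Summed over all 65 clustered genes, the level was 572, 570, 513, 553 and 535 CPM in the siCtrl libraries and 655, 591, 597, 620 and 630 CPM in the siDDX41 libraries. The groups did not overlap, and the ratio of their means was 1.13 (1.14 without H1-2). By family, the sums went from 95.2 ± 4.79 to 115 ± 8.10 CPM for H2A and from 194 ± 11.5 to 219 ± 9.60 CPM for H2B. Those of H1 went from 218 ± 11.8 to 242 ± 14.1 CPM, of H3 from 6.42 ± 0.272 to 6.87 ± 0.530 CPM and of H4 from 34.3 ± 1.09 to 34.5 ± 1.68 CPM. These sums rest on few genes. H1-2, H2AC6, H2BC12 and H2BC21 together held 76.9% of the clustered total in siCtrl and 74.6% in siDDX41. In siCtrl, H1-2 held 218 CPM of the H1 sum and H2AC6 81.2 CPM of the H2A sum. The ratio was 1.12 for the 16 genes with a transcript annotated past the stem-loop and 1.14 for the other 49. The sum of these 49 was 316 CPM in siCtrl, of which H1-2 held 218 CPM and H2BC12, which was not called, 76.4 CPM. Their ratio therefore mostly describes these genes.

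**Figure D3:**
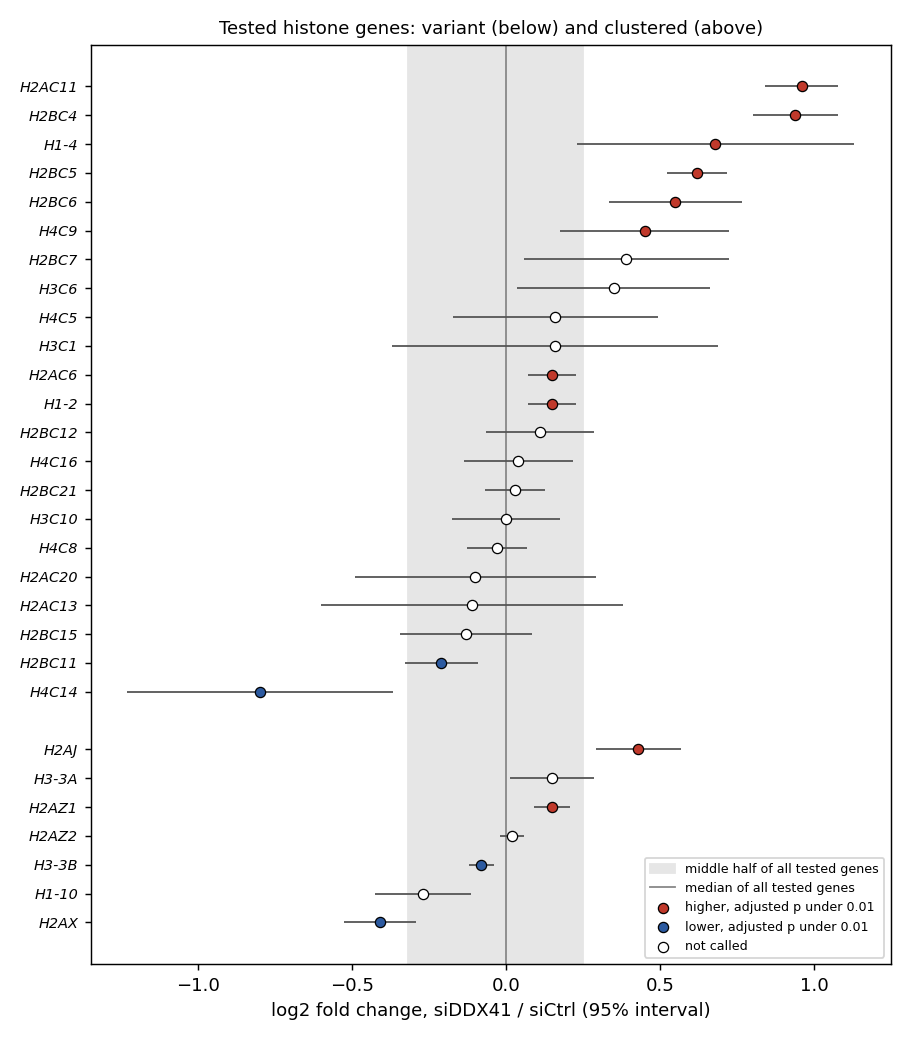
Log2 fold change of siDDX41 over siCtrl with 95% intervals for 29 tested histone genes; red, higher; blue, lower; open, not called; grey, range between the quartiles and median of all tested genes. H2AC11 (0.96) and H2BC4 (0.94) lie farthest to the right, and H4C14 (-0.80) and H2AX (-0.41) farthest to the left.

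Clustered H2A and H2B genes often face away from each other across a short shared promoter. Among the members, 13 pairs were divergent with a gap of at most 500 bases, 3 of these had both genes tested and 4 had 1 tested. In the pair H2BC11 and H2AC11, separated by 247 bases, H2BC11 on the minus strand fell (-0.21) and H2AC11 on the plus strand rose (0.96). In the pair H2BC4 and H2AC6, separated by 218 bases, both were called higher, with log2 fold changes of 0.94 and 0.15. In the pair H2BC21 and H2AC20, separated by 235 bases, neither was called (0.03 and -0.10). The value of H2AC20 ranged from -0.22 to -0.01 when each library was left out and was -0.00 with the GC correction. The first 2 shared promoters are given from RefSeq (GRCh38.p14, 250 bases before to 50 after the listed start of the plus-strand gene) because these pairs hold the called genes. Capitals mark the CCAAT box on either strand, the TATA motif TATAAA on either strand, and the octamer ATTTGCAT on either strand. Matches of the TATA motif on both strands can overlap.
H2AC11, chr6:27132793-27133092, plus strand: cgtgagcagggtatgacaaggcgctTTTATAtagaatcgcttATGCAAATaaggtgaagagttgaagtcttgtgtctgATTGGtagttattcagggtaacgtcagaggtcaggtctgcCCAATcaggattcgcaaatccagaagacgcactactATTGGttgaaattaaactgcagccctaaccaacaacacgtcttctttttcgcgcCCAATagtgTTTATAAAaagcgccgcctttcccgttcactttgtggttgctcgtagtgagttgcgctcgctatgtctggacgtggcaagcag
H2AC6, chr6:26123922-26124221, plus strand: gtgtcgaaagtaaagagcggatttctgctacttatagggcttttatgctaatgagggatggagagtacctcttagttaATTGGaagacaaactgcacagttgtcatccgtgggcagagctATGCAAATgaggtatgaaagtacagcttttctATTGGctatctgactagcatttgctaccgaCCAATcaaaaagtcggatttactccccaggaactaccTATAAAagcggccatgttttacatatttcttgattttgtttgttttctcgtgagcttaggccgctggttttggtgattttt

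Both stretches hold all 3 motifs. Of the members, 59 clustered and 19 variant genes matched a RefSeq promoter, and the first listed start within 500 bases of the annotated gene was used. CCAAT was found in 49 of the 59 clustered promoters (83.1%), including all 14 H2A and 18 H2B promoters but 3 of 13 H4 promoters, in 18 of 19 variant promoters (94.7%) and in 35.7% of 27077 promoters of all genes. The TATA motif was found in 67.8% of clustered, 36.8% of variant and 12% of all promoters. The octamer, a site for POU domain factors in H2B promoters, was found in 42.4% of clustered, 5.26% of variant and 1.79% of all promoters. It was found in 11 of 14 H2A (78.6%) and 14 of 18 H2B (77.8%) promoters. The windows of a divergent H2A and H2B pair overlap and either strand counts. A single octamer can therefore be counted for both genes, and these shares are not independent. Matches describe the letters in these windows and not occupied sites.

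The values were then placed in the order of the genes on chromosome 6. The stretches described were singled out after their values were seen. Between H1-2 and H2BC6 (chr6:26055740-26184655) lie 8 members, of which 6 were tested, and all 6 were called higher (H1-2, H2BC4, H2AC6, H1-4, H2BC5 and H2BC6). Of all genes tested 30.3% were called higher, and the ends of the stretch lie where these calls begin and stop, so nothing is read from this count. As given above, the calls of H2AC6 and H1-4 were lost in some settings. HFE, which overlaps H2BC4 there, was not called. Farther along, H2BC7 (0.39), H4C5 (0.16), H3C6 (0.35) and H4C8 (-0.03) were not called. Their values moved when each library was left out. H2BC7 ranged from 0.25 to 0.46, H4C5 from 0.07 to 0.26, H3C6 from 0.27 to 0.45 and H4C8 from -0.05 to -0.00. Between H2BC11 and H2BC12 (chr6:27125897-27146855), 4 members lie and all were tested, of which H2AC11 and H4C9 were higher, H2BC11 lower and H2BC12 not called. Beyond these, H2AC13 (-0.11), H3C10 (-0.00) and H2BC15 (-0.13) were not called. H2BC15 ranged from -0.17 to -0.07 when each library was left out.

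**Figure D4:**
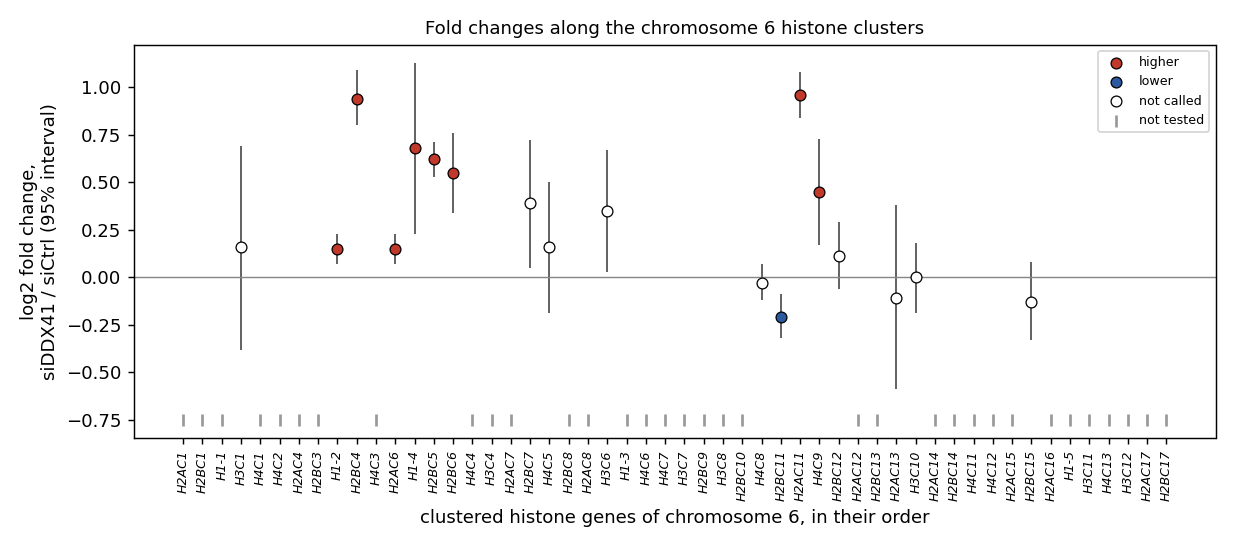
Log2 fold change with 95% intervals of the tested clustered histone genes of chromosome 6, placed in gene order and not to distance; red, higher; blue, lower; open, not called; ticks at the bottom, members not tested. The 6 tested genes from H1-2 to H2BC6 all lie above 0, and H2AC11 (0.96) stands beside H2BC11 (-0.21).

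Of the 8 variant genes tested, 2 were called higher (25%, beside 30.3% of all genes; H2AJ and H2AZ1), 3 lower (37.5%, beside 32.1%; among them H2AX and H3-3B) and 3 were not called (H1-10, H2AZ2 and H3-3A). Their groups did not overlap for 6 of 8 (75%), beside 55.9% of all genes. The summed level of the 5 H3 variants went from 686 ± 13.4 to 651 ± 9.38 CPM, and that of the 10 H2A variants from 1247 ± 33.4 to 1314 ± 33.1 CPM. Sums over the other variant families and over all variant genes are not given here, so these values do not describe the variant genes as a whole.

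H1-10, which encodes the linker histone H1.10, measured 157, 207, 161, 171 and 187 CPM in the siCtrl libraries and 145, 148, 154, 136 and 150 CPM in the siDDX41 libraries. Its groups did not overlap, with SDs of 20.7 CPM in siCtrl and 6.89 CPM in siDDX41, and it was not called in edgeR (log2 fold change -0.27, SE 0.08, adjusted p = 0.011), while it passed the same threshold in DESeq2 (-0.26), with the GC correction (-0.31), with the replicate block (-0.26) and without siCtrl replicate 1 (-0.31), 2 (-0.21) or 3 (-0.30). An antisense gene, H1-10-AS1, covers 22.8% of its exon bases and had 944 counts, against 38295 for H1-10.

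H2AX (chr11:119093874-119095465) encodes the H2A variant that is phosphorylated around DNA double-strand breaks. It measured 118, 142, 113, 118 and 126 CPM in the siCtrl libraries and 88, 89.8, 99.4, 89.9 and 96.4 CPM in the siDDX41 libraries, fell from 124 ± 11.3 to 92.7 ± 4.91 CPM (log2 fold change -0.41, SE 0.06, adjusted p = 1.9e-05), and its groups did not overlap. H2AJ, which encodes an H2A variant that accumulates in senescent fibroblasts, measured 12.3, 14.4, 13.8, 12 and 15.2 CPM in the siCtrl libraries and 19.4, 18.2, 17.5, 16 and 19.8 CPM in the siDDX41 libraries and rose from 13.5 ± 1.36 to 18.2 ± 1.53 CPM (log2 fold change 0.43, SE 0.07, adjusted p = 2.5e-06), again without overlap. H2AZ1 and H2AZ2 encode the isoforms of H2A.Z, found at promoters. H2AZ1 went from 791 ± 29 to 878 ± 29.4 CPM (log2 fold change 0.15, SE 0.03, adjusted p = 2.4e-05), and its lowest siDDX41 library, at 840 CPM, lay above its highest siCtrl library, at 827 CPM. H2AZ2 was at 319 ± 4.5 CPM in siCtrl and 324 ± 5.85 CPM in siDDX41, with a 95% interval of -0.03 to 0.07 on the log2 scale.

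H3-3A and H3-3B encode the same protein, H3.3, which is deposited outside replication. H3-3B measured 693, 681, 657, 674 and 674 CPM in the siCtrl libraries and 648, 634, 647, 626 and 640 CPM in the siDDX41 libraries and fell by a small amount, from 676 ± 13.1 to 639 ± 9.14 CPM (log2 fold change -0.08, SE 0.02, adjusted p = 0.00426). Its groups did not overlap, but the call was lost with DESeq2's size factors (-0.07), without the filter on low counts (-0.08), with the GC correction (-0.04) and without siCtrl replicate 1 or siDDX41 replicate 4 (both -0.07). H3-3A was at 10.1 ± 0.776 CPM in siCtrl and 11.2 ± 1.12 CPM in siDDX41 (adjusted p = 0.066), and 19.6% of its 84-base windows repeat elsewhere in the genome. Per length, H3-3B was at 110 CPM per kb in siCtrl and H3-3A at 2.64 CPM per kb.

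**Figure D5:**
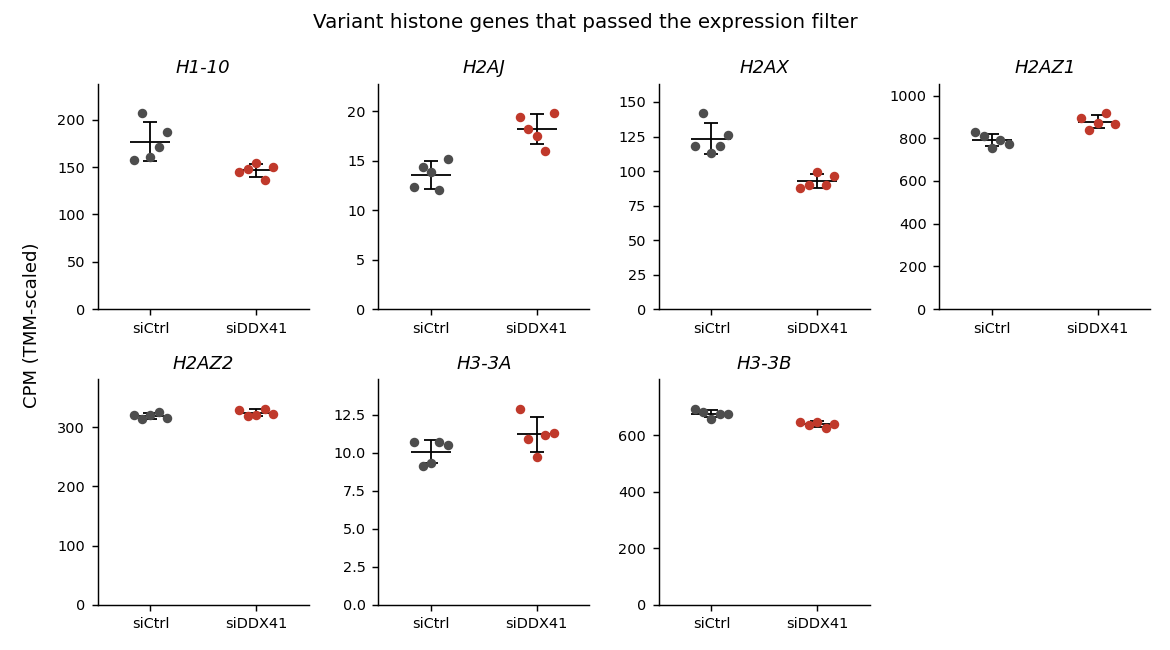
Level in CPM (axes from 0) of 7 variant histone genes that passed the expression filter, with each library as a point and bars for mean ± SD of 5 libraries. H2AX, H1-10 and H3-3B are lower in every siDDX41 library, and H2AJ and H2AZ1 higher.

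Of 5 listed histone variants outside the naming rule, 3 passed the filter, and these were called lower, beside 32.1% of all genes. MACROH2A1 went from 207 ± 3.16 to 165 ± 3.18 CPM (log2 fold change -0.33, adjusted p = 3.96e-12), CENPA, the centromeric H3 variant, from 73.8 ± 2.22 to 55.4 ± 3.20 CPM (-0.41, adjusted p = 5e-11) and MACROH2A2 from 47.1 ± 1.71 to 41.9 ± 3.43 CPM (-0.17, adjusted p = 0.00162).

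Genes that make and remove histone mRNA were then examined as lists, on which SLBP and MCM2 each appear in 2. Their counts are given as shares beside the 30.3% of all tested genes called higher and the 32.1% called lower, and nothing particular to a list is read from them. Of 23 tested genes of histone transcription and 3′-end formation, 10 were called higher (43.5%, all genes 30.3%) and 5 lower (21.7%, all genes 32.1%), with a median log2 fold change of 0.10. LSM10 and LSM11, components of the U7 particle, rose from 21.1 ± 1.67 to 32.5 ± 1.02 CPM (0.62, adjusted p = 2.74e-12) and from 14.6 ± 1.04 to 24.5 ± 2.20 CPM (0.74, adjusted p = 6.1e-12). CSTF2, a subunit of the cleavage stimulation factor, rose from 64.8 ± 1.69 to 81.4 ± 1.37 CPM (0.33, adjusted p = 1.47e-10). CPSF4 (-0.34, adjusted p = 2.53e-10), a poly(A) signal reader, CDK9 (-0.15, adjusted p = 0.000357) and SNRPB (-0.14, adjusted p = 0.00222) fell. SLBP was at 58.5 ± 0.897 and 58.0 ± 2.88 CPM (adjusted p = 0.77). PPP1R10 and NELFE, also listed, were at 0 counts.

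Of 16 tested genes of histone mRNA export, translation and decay, 6 were called higher (37.5%, near the 30.3% of all genes) and 3 lower (18.8%, all genes 32.1%), with a median of 0.13. ALYREF (0.39, adjusted p = 1.38e-11), LSM4 (0.25, adjusted p = 2.35e-08) and MIF4GD (0.39, adjusted p = 1.03e-07), which encodes an SLBP partner, rose. TUT4, a uridylyl transferase, fell from 96.7 ± 3.29 to 71.7 ± 2.24 CPM (-0.43, adjusted p = 9.35e-13), and the exonuclease genes ERI1 (-0.21, adjusted p = 2.47e-05) and DIS3L2 (-0.23, adjusted p = 5.93e-05) fell.

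Of 38 tested histone chaperone and exchange genes, 7 were called higher (18.4%, all genes 30.3%) and 18 lower (47.4%, all genes 32.1%), with a median of -0.13. ASF1B, an H3-H4 chaperone of proliferating cells, fell from 66.4 ± 2.05 to 34.0 ± 2.33 CPM (-0.96, adjusted p = 1.72e-18), RBBP4 from 296 ± 6.01 to 212 ± 3.79 CPM (-0.48, adjusted p = 4.23e-16) and IPO9, an importin for H2A and H2B, from 279 ± 4.89 to 205 ± 5.63 CPM (-0.44, adjusted p = 6.32e-15). ZNHIT1 (0.45, adjusted p = 1.82e-11), HAT1 (0.32, adjusted p = 8.19e-11) and ASF1A (0.38, adjusted p = 3.55e-10), the paralog of ASF1B, rose.

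Cell cycle genes were examined beside the histone genes. Of 40 tested S-phase genes, 3 were called higher (7.5%, all genes 30.3%) and 25 lower (62.5%, all genes 32.1%), with a median of -0.20, and of 36 G2 and M phase genes, 1 was called higher (2.78%, all genes 30.3%) and 30 lower (83.3%, all genes 32.1%), with a median of -0.31. GINS2 (-0.73, adjusted p = 1.13e-17), MCM3 (-0.57, adjusted p = 1.45e-17) and E2F1 (-0.75, adjusted p = 5.62e-17) fell, whereas CDC25A (0.28, adjusted p = 4.29e-07), CDC6 (0.24, adjusted p = 6.54e-07) and MCM6 (0.11, adjusted p = 0.000374) rose. TOP2A (-0.74, adjusted p = 8.74e-20), FOXM1 (-1.20, adjusted p = 3.75e-19) and PLK1 (-0.73, adjusted p = 6.63e-18) fell, and ANLN rose (0.22, adjusted p = 1.41e-08). The clustered histone median of 0.15 and the S-phase median of -0.20 are given side by side, and the part of cell cycle phase in the histone values was not tested.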

How the data were processed

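RNA-sequencing libraries of polyadenylated RNA from U2OS cells (5 siCtrl, 5 siDDX41, 48 h) were used; the groups come from the sample titles. The authors prepared stranded libraries, sequenced single reads of 84 bases, aligned them with STAR 2.7 (hg38, GENCODE release 25) and summarised them per gene in featureCounts 1.6. The deposited values are raw counts per gene. Strand setting and treatment of reads with several positions are not given in the sources used here.

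Identifiers without version were matched with release 44 of GENCODE, also on GRCh38 (98.7% of tested genes joined). Release 44 also gave the exon lengths, transcript ends and exon overlaps. Counts were analysed with edgeR 4.0.16 in R 4.3.3 (filterByExpr by group, TMM, robust quasi-likelihood fit and test, Benjamini-Hochberg adjustment over 16143 genes, threshold 0.01). Intervals are 95% normal intervals from the SE. Fits were tested on simulated data. Pairs of libraries within a group differed by 1.84 to 6.18 chi-square per degree of freedom, so none was counted as a duplicate. Stem-loops, repeated windows and motifs were computed in Python 3.11.15.

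The members and gene lists were chosen with earlier results of these data known. Named were DDX41, the 10 highest tested clustered genes, the 5 with the largest rise and the 5 with the largest fall, every tested variant gene but 1, which is not reported here, and up to 3 genes per list and direction with the smallest adjusted p, besides others where a small count falls on them. Alternatives were DESeq2 1.42.0, its size factors, no filter, a replicate block, a threshold of 0.05, leaving out each library or members with near-identical copies, and a GC correction added after the data were seen.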

Additional observations from a re-analysis of the deposited data

Results flagged for a closer look

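Each group of 5 libraries was checked for a library that stood apart from the other 4, by Dixon's criterion, for the 30 tested members. This gave 3 values in 60 groups, and chance gives about 1 in 20 groups. H2AC11 was at 27.5 CPM in siDDX41 replicate 1 and at 21.7 to 22.9 CPM in the other siDDX41 libraries; without this library its log2 fold change was 0.90. H2BC7 was at 2.06 CPM in siDDX41 replicate 3 and at 1.32 to 1.47 CPM in the others. H4C16 was at 6.85 CPM in siCtrl replicate 3 and at 5.59 to 5.95 CPM in the others.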

How the results depend on the processing

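Over 16 alternatives, 17 of the 30 tested members kept their direction and side of the threshold in every run. The number of clustered genes called higher (8) was 6 in DESeq2, 7 with the GC correction, 9 at a threshold of 0.05, 7 with the replicate block and between 5 and 8 when each library was left out, with 5 reached without siCtrl replicate 5. The number called lower (2) was 1 with the GC correction, 1 without members with near-identical copies, and between 0 and 2 when each library was left out (0 without siCtrl replicate 5). The median log2 fold change of clustered genes (0.15) was 0.23 with the GC correction and 0.09 to 0.17 when each library was left out. That of variant genes (-0.03) was 0.03 in DESeq2 and 0.03 without the filter, both of which include more genes. The ratio of summed levels was 1.11 to 1.14 when each library was left out.

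Direction turned in 5 members, none of which was called. H3C10 (-0.00) was 0.01 in DESeq2, 0.01 with its size factors, 0.00 without the filter, 0.04 with the GC correction and -0.06 to 0.06 when each library was left out. H2AZ2 was -0.01 with the GC correction. When each library was left out, H2AC13 (-0.11) ranged from -0.24 to 0.11, H2BC21 (0.03) from -0.01 to 0.07 and H4C16 (0.04) from -0.01 to 0.09. The cause was not tested.

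With the replicate block, 4 variant genes were called lower, since H1-10 was added, and H1-4 was lost. Libraries with the same number shared only the number: their deviations correlated by 0.0031 on average (-0.0524 to 0.0446), and 1 of 5 siCtrl libraries correlated best with its own number. Depth limits the members with few counts.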
